A study of Mus musculus with 12 samples.

Results

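The genes of voltage-gated and potassium channels were described in cerebellar granule cell progenitors, the dividing precursors of granule neurons, of Znhit3 conditional knockout mice and control mice at postnatal day 3 (P3). Members were the protein-coding genes whose symbol begins with Kcn, a subfamily letter and a number, with Scn, a number and a or b, or with Cacna, Cacnb or Cacng. This rule took no measured value and gave 131 of the 31091 genes in the deposited table, namely 91 potassium, 14 sodium and 26 calcium channel genes in 26 families, auxiliary subunits included. The compared groups were conditional knockout (cKO) progenitors and control progenitors labelled WT, both isolated at P3, with 3 libraries each. The Znhit3 product carries a zinc finger and helps to build the particles that guide ribosomal RNA modification. The labels give neither the Cre driver, the deleted exons, the strain nor the number of animals per library, so p-values measure only the spread between these libraries, which may be technical. The series also holds 3 cKO and 3 control samples at postnatal day 6, which were not analysed here.

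Ion channels set how a neuron's membrane responds. Inward rectifier and two-pore-domain potassium channels hold the resting potential, voltage-gated sodium channels start the action potential, voltage-gated potassium channels end it, and calcium-activated potassium channels slow the next one. Voltage-gated calcium channels admit the calcium that drives transmitter release and, in migrating granule neurons, movement along Bergmann glia. In granule neurons the resting leak and A-type potassium currents are well studied, and mutations of the potassium channel gene Kcnj6 in the weaver mouse and of Cacng2 in the stargazer mouse disturb these cells.

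Levels are FPKM (fragments per kilobase of gene length, scaled to the library's depth), so that genes of different length can be compared. A difference is the cKO mean less the control mean of log2(FPKM + 1), a scale that makes changes of low genes look smaller than they are. Each adjusted p is limma's with Benjamini-Hochberg adjustment over the 13538 genes averaging 1 FPKM or more. A gene was called at an adjusted p under 0.05. The libraries held 29119803 to 40281292 counted reads in cKO and 32278245 to 52961445 in control. Znhit3 measured 4.03, 4.01 and 4.57 FPKM in cKO libraries and 9.15, 8.62 and 8.58 FPKM in control libraries, with an exact two-sided permutation p of 0.1, the smallest that 3 against 3 libraries allow. The adjusted p of Znhit3 was 0.00024.

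The labelled cell type was checked with marker lists. All 16 progenitor markers were measured, and their summed level was 1151 to 1207 FPKM in cKO and 1364 to 1446 FPKM in control, with Atoh1, the transcription factor gene that specifies these cells, at 35.0 ± 2.1 FPKM in cKO and 37.5 ± 3.3 FPKM in control (SD, n = 3). Of these 16 markers, 2 rose, 5 fell (Mfap4, Barhl1, Pax6, Sfrp1 and Boc) and 9, Atoh1 among them, were not called. The falls depended on the processing: 8 in the authors' deposited table, 4 after TPM scaling and 3 after quantile normalization. RNA of marker genes of other cell types was present in both groups, with a sum above 0 in every library for each list. No matched marker was at 0 in all 6 libraries, but single ones such as Tagln and Prlr averaged under 0.1 FPKM. Ahsp of the erythroid list was not matched. Choroid plexus markers summed to 670 to 747 FPKM in cKO and 1376 to 1463 FPKM in control, and endothelial markers to 260 to 274 FPKM and 149 to 161 FPKM. Most of the choroid plexus sum was Ttr, whose values are given below. Of the 10 tested markers of that list, 5 had a positive and 5 a negative difference. Of 5 tested erythroid markers 4 rose, and that list summed to 1656 to 1887 FPKM in cKO and 1211 to 1476 FPKM in control. The remaining lists stand beside the genes they touch. In these bulk libraries, fewer cells of a type and less RNA per cell cannot be told apart.

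Of the 131 channel genes, 57 passed the filter on low values, 41 had a mean from 0.2 to 1 FPKM and 33 lay under 0.2 FPKM. Of the 57, 5 had a mean of at least 1 FPKM in only 1 of the groups, and 5 of those below the filter had such a mean in 1 group. Among the 57, 10 were called higher and 10 lower in cKO, and 37 were not called. Each direction is 17.5% of the tested members, beside 13.4% of all tested genes called higher and 5.74% called lower. The median difference was 0.02 over the tested channel genes and 0.03 over all tested genes. The 3 cKO values lay all above the control values for 15 members and all below for 17, which is 26.3% and 29.8%, beside 27.3% and 13.2% of all tested genes. The count of higher calls depended on single libraries: it was 8 without cKO replicate 3, 6 without control replicate 1 and 5 without any other library. Over all genes the higher calls dropped too, from 1813 to between 845 without cKO replicate 2 and 1469 without cKO replicate 1. The counts of members also depended on the scaling. Quantile normalization gave 5 higher and 15 lower (8.0% and 6.08% of all genes). With the gene length trend removed they were 6 and 13 (8.62% and 7.67%), and after TPM scaling 12 and 9 (18.1% and 4.06%). On recovered reads voom called 14 members higher and 13 lower (19.4% and 8.15% of all genes). With a filter of 0.2 FPKM limma called 11 higher and 10 lower of 98 tested members (8.59% and 3.67% of all genes).

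**Figure D1:**
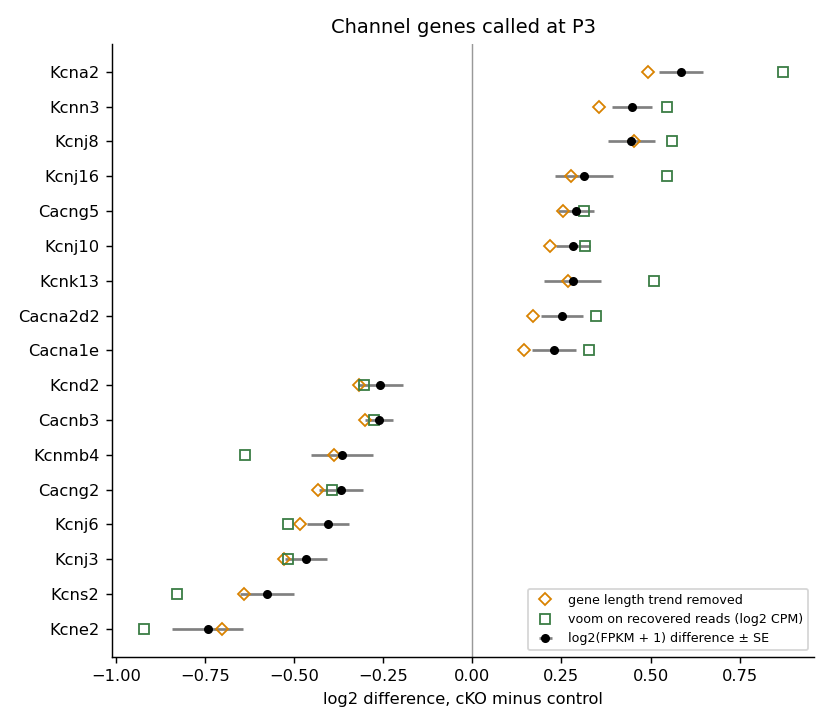
Log2 differences, cKO minus control, of 17 of the 20 called channel genes. Filled circles with bars are the log2(FPKM + 1) difference and its SE, open diamonds the same after removal of a gene length trend, and open squares voom on recovered reads. Kcna2 lies at the top with 0.58 and Kcne2 at the bottom with -0.74, and no gene shown changes its sign between the 3 measures.

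A set of 12 members was called by limma as above and in all 18 alternatives to that processing. The 5 higher ones were Kcna2, Kcnn3, Kcnj8, Kcnj10 and Cacng5, and the 7 lower ones included Kcne2, Kcns2, Kcnj3, Kcnj6, Cacng2 and Cacnb3. All 20 called members had groups that did not overlap, which a call on 3 against 3 libraries nearly requires and which adds no support. No called change reached 2-fold: the mean ratio of cKO to control ran between 0.516 for Kcne2 and 1.83 for Kcna2. The promoters of 4 of the 12 are shown for a strong rise (Kcna2) and for rises and a fall within the inward rectifier family (Kcnj8, Kcnj10, Kcnj3), chosen with their values known from genes with a single promoter in the RefSeq table. Each covers 250 bases before to 50 after the transcription start on GRCm38.p6, written 5′ to 3′ on the gene's strand, with capitals marking exact matches, on either strand, to the GC box, to the E-box letters or to the TATA box.
Kcna2 (chr3:107101317-107101616, plus strand): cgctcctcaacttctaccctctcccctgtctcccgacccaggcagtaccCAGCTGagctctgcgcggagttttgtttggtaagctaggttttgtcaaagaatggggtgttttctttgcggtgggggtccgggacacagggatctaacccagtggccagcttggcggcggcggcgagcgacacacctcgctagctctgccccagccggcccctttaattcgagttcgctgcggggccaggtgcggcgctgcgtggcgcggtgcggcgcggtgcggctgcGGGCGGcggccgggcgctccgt
Kcnj10 (chr1:172340960-172341259, plus strand): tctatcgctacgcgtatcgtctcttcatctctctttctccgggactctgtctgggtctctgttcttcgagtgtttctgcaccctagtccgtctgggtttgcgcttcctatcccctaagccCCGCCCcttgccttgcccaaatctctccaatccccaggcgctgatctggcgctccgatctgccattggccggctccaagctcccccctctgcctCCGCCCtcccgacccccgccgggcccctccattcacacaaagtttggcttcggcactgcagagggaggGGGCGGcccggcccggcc
Kcnj8 (chr6:142571565-142571864, minus strand): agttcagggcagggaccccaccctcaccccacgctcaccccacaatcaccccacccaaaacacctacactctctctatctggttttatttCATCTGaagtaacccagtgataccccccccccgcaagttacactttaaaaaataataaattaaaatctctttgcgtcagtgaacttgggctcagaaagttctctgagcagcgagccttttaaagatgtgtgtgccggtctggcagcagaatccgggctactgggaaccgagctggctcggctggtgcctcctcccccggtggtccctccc
Kcnj3 (chr2:55435720-55436019, plus strand): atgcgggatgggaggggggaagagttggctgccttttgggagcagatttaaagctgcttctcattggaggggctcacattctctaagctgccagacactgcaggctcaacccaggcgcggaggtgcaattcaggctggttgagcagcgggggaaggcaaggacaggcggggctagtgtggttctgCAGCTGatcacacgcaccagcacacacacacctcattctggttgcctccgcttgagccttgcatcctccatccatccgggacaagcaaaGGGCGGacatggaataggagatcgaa

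The GC box was searched as GGGCGG. It stood in the Kcna2, Kcnj10 and Kcnj3 windows, 3 times in that of Kcnj10, and in 46.2% of 132 channel promoters, beside 35.7% of all 32851 promoters in the RefSeq table. The first E-box, CAGCTG, stood in the Kcna2 and Kcnj3 windows, that is in a gene that rose and in a gene that fell, and in 27.3% of channel promoters and 16.3% of all. A second E-box, CAGATG, stood in the Kcnj8 window, and in 18.9% of channel promoters and 17.2% of all. The TATA box, TATAAA, was in none of the 4 windows, in 5.30% of channel promoters and in 13.6% of all. These matches describe letters only. Promoters were matched by symbol for 96 of the 131 members.

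Inward rectifier genes (Kcnj) moved in both directions while their summed level stayed close, at 37.7 ± 0.62 FPKM in cKO and 38.4 ± 1.1 FPKM in control (SD, n = 3). Of 14 genes 8 were tested, 3 rose, 2 fell and 3 were not called. Kcnj3 (ENSMUSG00000026824, chromosome 2) encodes a subunit of the G protein-gated channels that transmitters open through inhibitory receptors. It measured 8.66, 8.95 and 9.52 FPKM in cKO libraries and 13.8, 12.1 and 12.8 FPKM in control libraries. The cKO values all lay below the control values, and the fall was -0.47 ± 0.06 (SE) with an adjusted p of 0.0023. Kcnj6 (ENSMUSG00000043301, chromosome 16), the weaver gene and a partner of Kcnj3 in these channels, measured 3.03, 2.99 and 2.80 FPKM in cKO libraries and 4.45, 4.01 and 4.18 FPKM in control libraries. It fell by 0.40 ± 0.06 (SE) on the log2(FPKM + 1) scale with an adjusted p of 0.0039, again without overlap. The other G protein-gated subunit genes, Kcnj9 and Kcnj5, were below the filter, at 0.468 and 0.0593 FPKM in cKO and 0.381 and 0.0168 FPKM in control.

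Kcnj10 (ENSMUSG00000044708, chromosome 1) encodes the glial channel that takes up potassium around active neurons. It measured 11.5, 10.8 and 10.5 FPKM in cKO libraries and 8.73, 8.88 and 8.77 FPKM in control libraries. It rose by 0.28 ± 0.05 (SE) with an adjusted p of 0.0064, and the control values were close together. Kcnj16, whose product joins that of Kcnj10 in glial and epithelial channels, rose to 1.58 ± 0.17 FPKM in cKO, against 1.08 ± 0.074 FPKM in control (SD, n = 3), with an adjusted p of 0.034 that missed the threshold without any single library and in 10 of the 18 alternatives. Of the 12 astroglia and Bergmann glia markers, 6 rose and none fell in the same libraries, with a summed level of 938 to 968 FPKM in cKO and 889 to 911 FPKM in control. The glial water channel gene Aqp4 measured 50.2 ± 2.0 FPKM in cKO and 34.5 ± 2.6 FPKM in control (SD, n = 3). The part of glial RNA in the rise of Kcnj10 and Kcnj16 was not tested.

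Kcnj8 (ENSMUSG00000030247, chromosome 6) encodes the pore of an ATP-sensitive channel of pericytes and smooth muscle. It measured 3.96, 4.04 and 4.39 FPKM in cKO libraries and 2.63, 2.66 and 3.02 FPKM in control libraries, a rise of 0.45 ± 0.07 (SE) with an adjusted p of 0.0041. Abcc9, which encodes its sulphonylurea receptor subunit, rose to 3.10 ± 0.24 FPKM in cKO, against 1.79 ± 0.18 FPKM in control (SD, n = 3), with an adjusted p of 0.0032. Abcc9 also stands in the list of 11 pericyte and smooth muscle markers, of which 8 were tested and all 8 rose. That list summed to 115 to 118 FPKM in cKO and 77.8 to 78.7 FPKM in control, Tagln was under 0.1 FPKM, and its part in the rise of Kcnj8 was not tested. Kcnj11, the pore gene of the neuronal and endocrine counterpart, measured 4.29 ± 0.28 FPKM in cKO and 4.20 ± 0.29 FPKM in control (SD, n = 3) with an adjusted p of 0.81, and its receptor gene Abcc8 differed by -0.15 ± 0.06 (SE), adjusted p 0.15. Within the Kcnj family, the share of summed FPKM held by Kcnj3 and Kcnj6 was 31.8% ± 1.2 in cKO and 44.5% ± 1.7 in control (SD, n = 3). Kcnj10, Kcnj16 and Kcnj8 together held 44.1% ± 0.19 in cKO and 32.9% ± 1.0 in control (SD, n = 3). These sets are the Kcnj members called lower and those called higher, so their shares had to part and add no support.

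Kcnj12, a classical inward rectifier gene, measured 1.62 ± 0.13 FPKM in cKO and 1.59 ± 0.030 FPKM in control (SD, n = 3) and was not called. Kcnj2, another classical rectifier gene, was below the filter at 1.04 ± 0.20 FPKM in cKO and 0.645 ± 0.091 FPKM in control (SD, n = 3), and the authors' deposited table called it higher with a log2 fold change of 0.65. Kcnj13 encodes a rectifier of the choroid plexus and measured 0.965, 1.11 and 0.757 FPKM in cKO libraries and 1.55, 1.22 and 1.38 FPKM in control libraries. These groups did not overlap, yet the value of -0.29 ± 0.10 (SE) had an adjusted p of 0.073 on 28 to 93 reads per library.

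**Figure D2:**
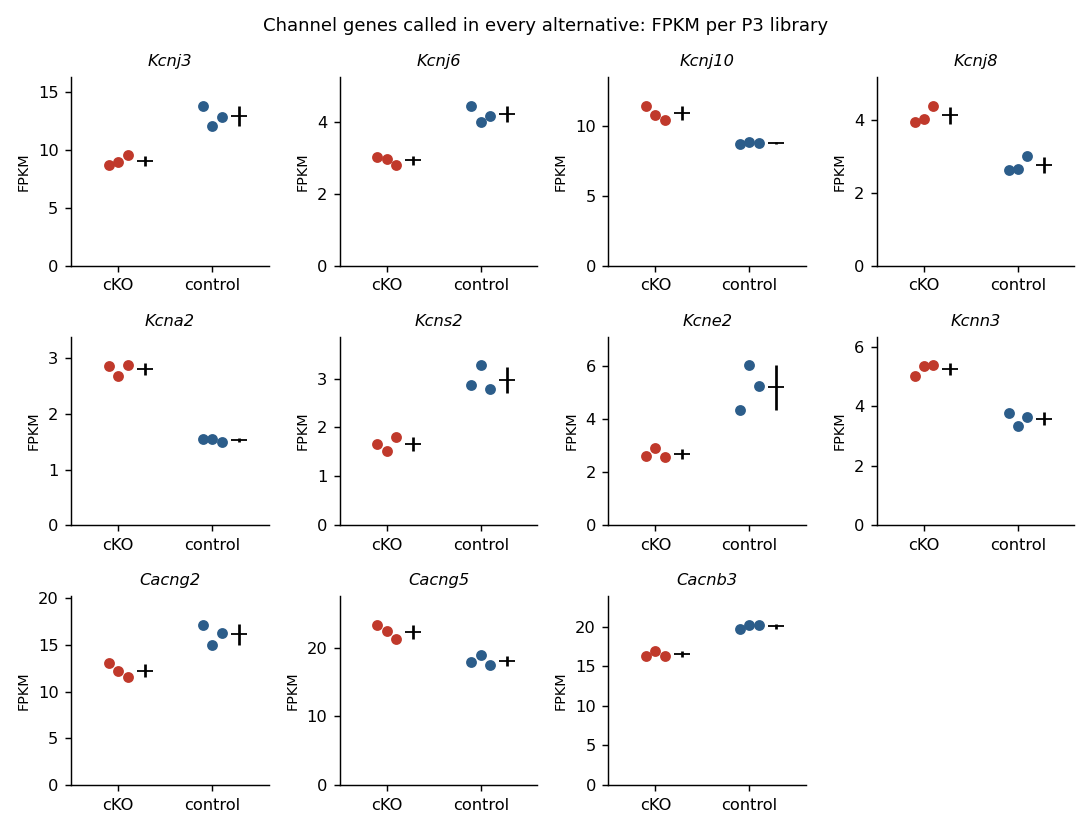
FPKM in each P3 library of 11 of the 12 channel genes called in every alternative, cKO at the left (red) and control at the right (blue). Short bars and lines give the mean and SD of 3 libraries, and every axis starts at 0. In each of the 11 genes the cKO and control points do not overlap, as in every called member.

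Two-pore-domain genes (Kcnk), whose products carry the standing leak, were mostly not called. Of 14 genes 5 were tested, and Kcnk13 rose. Kcnk1 and Kcnk9, of which Kcnk9 encodes an acid-sensitive leak channel of granule neurons, were among the most abundant members. Kcnk1 measured 15.0 ± 1.3 FPKM in cKO and 15.6 ± 0.74 FPKM in control (SD, n = 3), with a difference of -0.06 ± 0.07 (SE). Kcnk9 measured 9.67, 9.63 and 10.2 FPKM in cKO libraries and 10.2, 9.56 and 9.40 FPKM in control libraries, with a difference of 0.01 ± 0.05 (SE), so that its groups overlapped. Kcnk2, a mechanosensitive leak channel gene, measured 8.18 ± 0.18 FPKM in cKO and 9.04 ± 0.34 FPKM in control (SD, n = 3) with an adjusted p of 0.087, and of 0.034 once the gene length trend was taken out. Kcnk10 measured 2.05 ± 0.28 FPKM in cKO and 2.44 ± 0.13 FPKM in control (SD, n = 3), with an adjusted p of 0.16. The authors' deposited table called Kcnk2 and Kcnk10 lower, with log2 fold changes of -0.20 and -0.31.

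Kcnk13, which encodes a leak channel of microglia, rose to 1.45 ± 0.086 FPKM in cKO, against 1.02 ± 0.11 FPKM in control (SD, n = 3), with an adjusted p of 0.045. That call was lost without any single library, and the authors' deposited table did not call it (adjusted p of 0.088). Of 12 microglia and macrophage markers 7 rose and none fell, with a summed level of 329 to 374 FPKM in cKO and 271 FPKM in each control library. Their part in the rise of Kcnk13 was not tested.

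Among the pore genes of voltage-gated potassium channels (Kcna, Kcnb, Kcnc, Kcnd, Kcnh and Kcnq), 13 of 29 were tested, 2 rose, 3 fell and 8 were not called. Kcna2 (ENSMUSG00000040724, chromosome 3) encodes a low-threshold delayed rectifier of axons and terminals and had the smallest p of all members. It measured 2.85, 2.68 and 2.87 FPKM in cKO libraries and 1.55, 1.55 and 1.49 FPKM in control libraries. Its rise of 0.58 ± 0.06 (SE) had an adjusted p of 0.0013, and on recovered reads voom gave a log2 difference of 0.87. The other Kcna gene tested, Kcna6, measured 1.17 ± 0.21 FPKM in cKO and 0.969 ± 0.10 FPKM in control (SD, n = 3) and was not called, and Kcna1, Kcna3, Kcna4, Kcna5 and Kcna7 were below the filter. In the same libraries 9 of 12 GABAergic interneuron markers rose and 1 fell, with a summed level of 147 to 160 FPKM in cKO and 112 to 121 FPKM in control, and 9 of 11 tested oligodendrocyte lineage markers rose. The part of such cells in the rise of Kcna2 was not tested.

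Kcnc1, which encodes a fast delayed rectifier that lets neurons fire at high rates, measured 6.51 ± 0.49 FPKM in cKO and 6.54 ± 0.25 FPKM in control (SD, n = 3), a difference of -0.01 ± 0.06 (SE). The Kcnd genes, which carry the A-type current of granule neurons, included a called and an uncalled member. Kcnd2 fell to 6.49 ± 0.15 FPKM in cKO, against 7.97 ± 0.68 FPKM in control (SD, n = 3), with an adjusted p of 0.027 that missed the threshold without control replicate 1 or 3 or without cKO replicate 2 or 3. Kcnd3 measured 11.3 ± 0.43 FPKM in cKO and 11.2 ± 0.20 FPKM in control (SD, n = 3), a difference of 0.01 ± 0.04 (SE). Whether Kcnd2 and Kcnd3 differed in their response was not tested.

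The Kcnq genes encode the slow M-type channels. Kcnq3 and Kcnq5 were not called, with differences of 0.10 ± 0.08 and 0.09 ± 0.08 (SE). Among 8 Kcnh genes, which include the ether-a-go-go channels, Kcnh2 was the most abundant, at 4.07 ± 0.067 FPKM in cKO and 4.42 ± 0.15 FPKM in control (SD, n = 3) with an adjusted p of 0.20. Kcnb2, a slow delayed rectifier gene, measured 2.15 ± 0.063 FPKM in cKO and 1.81 ± 0.20 FPKM in control (SD, n = 3) with an adjusted p of 0.14.

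Genes of silent subunits, which modify other voltage-gated potassium channels and form no channel alone, were low except for Kcns2 (ENSMUSG00000050963, chromosome 15). Kcns2 measured 1.67, 1.52 and 1.80 FPKM in cKO libraries and 2.86, 3.27 and 2.79 FPKM in control libraries. The fall of -0.58 ± 0.08 (SE) had an adjusted p of 0.0027. The other 9 genes of the Kcnf, Kcng, Kcns and Kcnv families were below the filter. Of these, the authors' deposited table called Kcnf1 and Kcng1 higher, with log2 fold changes of 0.94 and 0.85 at mean levels of 0.377 and 0.395 FPKM in cKO and 0.191 and 0.210 FPKM in control.

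Accessory subunits of potassium channels gave 2 falls and no rise among 8 tested of 16. Kcne2 (ENSMUSG00000039672, chromosome 16) encodes a single-span subunit that works in choroid plexus epithelium. It measured 2.59, 2.89 and 2.57 FPKM in cKO libraries and 4.32, 6.01 and 5.26 FPKM in control libraries. It fell by 0.74 ± 0.10 (SE) on the log2(FPKM + 1) scale, with an adjusted p of 0.0029, the largest fall among the tested members. Choroid plexus and ependyma markers fell in the same libraries in 5 of 10 tested cases and rose in 1. Ttr, the transthyretin gene of choroid plexus, measured 665 ± 44 FPKM in cKO and 1370 ± 48 FPKM in control (SD, n = 3). Ttr made up most of the summed level of that list. Prlr of that list was under 0.1 FPKM, and the part of choroid plexus RNA in the fall of Kcne2 was not tested.

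Kcne1l, an X-linked member of the same family also known as Kcne5, was the second most abundant of all 131 genes. It measured 42.4, 42.1 and 39.2 FPKM in cKO libraries and 39.0, 41.1 and 42.6 FPKM in control libraries, with a difference of 0.01 ± 0.05 (SE) and overlapping groups. Kcnmb4, the neuronal beta subunit of large-conductance calcium-activated channels, fell to 0.983 ± 0.15 FPKM in cKO, against 1.55 ± 0.089 FPKM in control (SD, n = 3), with an adjusted p of 0.024. Its mean reached 1 FPKM in control only. Its call was lost without control replicate 2 or 3 or cKO replicate 2 or 3, without a filter and with the replicate block. A separate transcript, named as an opposite strand transcript of Kcnmb4 (Kcnmb4os2), had 2.65 ± 0.54 FPKM in cKO and 2.84 ± 0.38 FPKM in control (SD, n = 3), and since the use of strand in counting is not given, reads shared by this pair cannot be told apart. Kcnip3, a calcium-binding subunit of A-type channels, measured 15.0 ± 0.25 FPKM in cKO and 15.4 ± 0.16 FPKM in control (SD, n = 3) with an adjusted p of 0.56. Of the Kv beta genes, Kcnab2 measured 3.58 ± 0.16 FPKM in cKO and 3.84 ± 0.24 FPKM in control (SD, n = 3) with an adjusted p of 0.38. Kcnab3 measured 1.17 ± 0.083 FPKM in cKO and 1.65 ± 0.21 FPKM in control (SD, n = 3) with an adjusted p of 0.050, just outside the threshold, and the authors' deposited table called it lower.

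Calcium-activated potassium channel genes were led by Kcnn3 (ENSMUSG00000000794, chromosome 3), which encodes a small-conductance channel of the afterhyperpolarization. Kcnn3 measured 5.02, 5.36 and 5.37 FPKM in cKO libraries and 3.76, 3.35 and 3.64 FPKM in control libraries. It rose by 0.45 ± 0.06 (SE) with an adjusted p of 0.0024. Kcnn1 and Kcnn2 were not called, with differences of -0.19 ± 0.09 and 0.21 ± 0.08 (SE). Kcnn3 held 63.0% ± 1.1 of the summed Kcnn level in cKO and 53.1% ± 3.2 in control (SD, n = 3). The pore gene of large-conductance channels, Kcnma1, was below the filter at 0.741 ± 0.040 FPKM in cKO and 0.685 ± 0.12 FPKM in control (SD, n = 3), and so was the sodium-activated channel gene Kcnt1.

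None of the 3 tested sodium channel genes was called by limma, at an adjusted or an unadjusted p under 0.05, and the authors' deposited table called Scn3a higher. Scn8a encodes the main pore of axon initial segments and nodes and held 73.8% ± 1.2 of the summed Scn pore level in cKO and 76.8% ± 0.55 in control (SD, n = 3). It measured 6.60, 6.29 and 6.74 FPKM in cKO libraries and 6.26, 6.48 and 6.49 FPKM in control libraries, with a difference of 0.03 ± 0.05 (SE). The groups overlapped. Scn3b, a beta subunit gene of immature neurons, measured 6.91 ± 0.063 FPKM in cKO and 6.76 ± 0.65 FPKM in control (SD, n = 3). Scn2a and Scn3a, the pores of immature axons, were below the filter, at 0.827 and 0.918 FPKM in cKO and 0.796 and 0.668 FPKM in control. For Scn3a the authors' deposited table gave a log2 fold change of 0.40, and the remaining pore genes were lower still.

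Of 10 calcium channel pore genes (Cacna1) 6 were tested, and Cacna1e, the R-type channel gene, was called. It rose to 2.68 ± 0.11 FPKM in cKO, against 2.14 ± 0.11 FPKM in control (SD, n = 3), with an adjusted p of 0.038 that missed the threshold without any single library, and also once the gene length trend was taken out. Cacna1b, the N-type channel gene of presynaptic terminals and migrating granule neurons, was the most abundant, at 5.18, 4.80 and 4.94 FPKM in cKO libraries and 5.70, 5.82 and 5.55 FPKM in control libraries. Its groups did not overlap, but the difference of -0.16 ± 0.05 (SE) had an adjusted p of 0.052, and 6 alternatives and the authors' deposited table called it lower. Cacna1a, the P/Q-type gene, had an adjusted p of 0.26 and Cacna1g, a T-type gene, 0.062. Cacna1g measured 2.92 ± 0.28 FPKM in cKO and 2.36 ± 0.065 FPKM in control (SD, n = 3), and the authors' deposited table called it higher. Both are strongly used by Purkinje cells, of whose 12 markers 6 were tested and 3 rose, with sums of 19.2 to 19.7 FPKM in cKO and 15.0 to 17.4 FPKM in control. With the gene length trend removed or after quantile normalization 1 of these markers rose, after TPM scaling 4 and with voom 5.

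Among auxiliary calcium channel genes, Cacnb3 (ENSMUSG00000003352, chromosome 15) encodes a cytoplasmic beta subunit that carries pores to the membrane. It measured 16.3, 16.9 and 16.3 FPKM in cKO libraries and 19.7, 20.2 and 20.2 FPKM in control libraries. The fall of -0.26 ± 0.04 (SE) was small but exceeded the spread, with an adjusted p of 0.0045. Cacnb1 measured 6.85 ± 0.25 FPKM in cKO and 6.77 ± 0.22 FPKM in control (SD, n = 3), a difference of 0.01 ± 0.05 (SE). Cacnb2 was below the filter at 0.785 ± 0.080 FPKM in cKO and 0.487 ± 0.042 FPKM in control (SD, n = 3), and the authors' deposited table called it higher with a log2 fold change of 0.64. Cacnb3 thus made up 65.8% ± 0.53 of the summed Cacnb level in cKO and 71.3% ± 0.16 in control (SD, n = 3).

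The alpha2delta genes encode extracellular subunits that bring calcium channels to the surface. Cacna2d2, mutated in the ataxic ducky mouse, rose to 3.20 ± 0.077 FPKM in cKO, against 2.53 ± 0.14 FPKM in control (SD, n = 3), with an adjusted p of 0.024. The call held without control replicate 1 and was lost without each other library, and once the gene length trend was taken out. Cacna2d1 was more abundant, at 8.13 ± 0.57 FPKM in cKO and 7.78 ± 0.48 FPKM in control (SD, n = 3), with an adjusted p of 0.56. Cacna2d3, below the filter at 1.17 ± 0.028 FPKM in cKO and 0.760 ± 0.13 FPKM in control (SD, n = 3), was called higher by limma with a filter of 0.2 FPKM (adjusted p of 0.046) and in the authors' deposited table.

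The Cacng genes, named as calcium channel gamma subunits, mostly encode auxiliary proteins of AMPA-type glutamate receptors, and they gave the highest summed level of the 26 families, 118 ± 11 FPKM in cKO and 119 ± 3.5 FPKM in control (SD, n = 3). Cacng2 (ENSMUSG00000019146, chromosome 15) encodes stargazin, which brings AMPA receptors to granule cell synapses. It measured 13.0, 12.2 and 11.5 FPKM in cKO libraries and 17.1, 14.9 and 16.3 FPKM in control libraries, a fall of -0.37 ± 0.06 (SE) with an adjusted p of 0.0074. Cacng5 (ENSMUSG00000040373, chromosome 11), whose product modulates AMPA receptors in another way, measured 23.3, 22.4 and 21.2 FPKM in cKO libraries and 17.8, 18.9 and 17.5 FPKM in control libraries. It rose by 0.29 ± 0.05 (SE) with an adjusted p of 0.0079, so that members of this family moved in opposite directions without overlap. Cacng7, the most abundant of all 131 genes, measured 62.0, 50.0 and 47.9 FPKM in cKO libraries and 54.7, 56.3 and 61.2 FPKM in control libraries. Here the cKO values spread around the control values, and the adjusted p was 0.42. Without cKO replicate 1, whose value was the highest of all, Cacng7 was called lower, with an adjusted p of 0.045. Cacng4 measured 25.6 ± 2.1 FPKM in cKO and 22.5 ± 0.45 FPKM in control (SD, n = 3) with an adjusted p of 0.077.

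**Figure D3:**
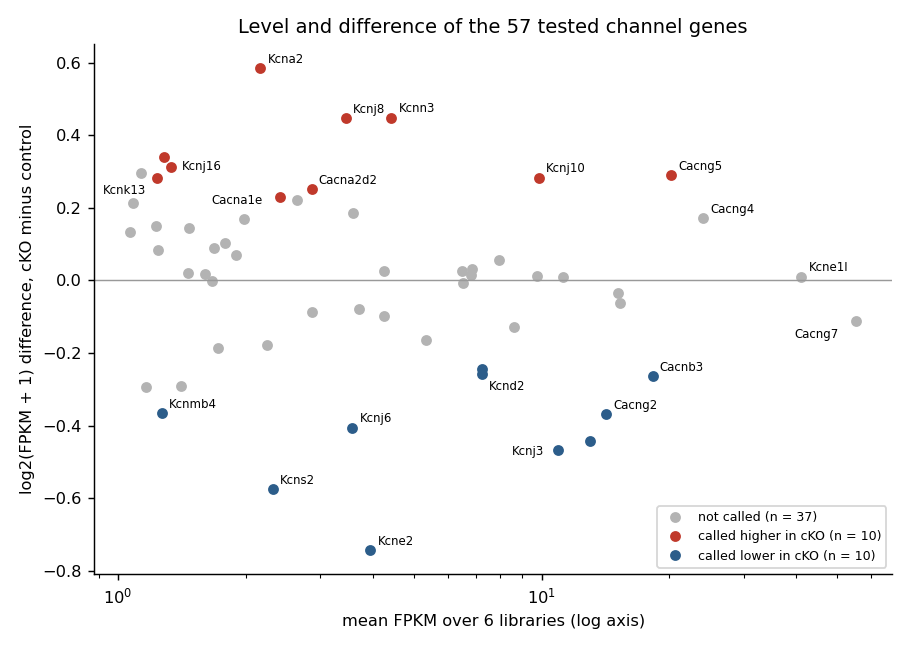
Mean FPKM over the 6 libraries (log axis) against the log2(FPKM + 1) difference, cKO minus control, of the 57 tested channel genes. Called genes are red (10 higher) and blue (10 lower) and 37 others grey. Cacng7 and Kcne1l lie at the right near 0, and called genes occur from about the filter up to Cacng5.

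By level, Cacng7, Kcne1l and Cacng4 came first in both groups, at 53.3, 41.2 and 25.6 FPKM in cKO and 57.4, 40.9 and 22.5 FPKM in control. Cacng5 followed at rank 4 in cKO and 5 in control, and Cacnb3 at rank 5 in cKO and 4 in control. Kcnip3, Kcnk1 and Cacng2 came next in cKO, at 15.0, 15.0 and 12.3 FPKM. In control the following genes were Cacng2, Kcnk1 and Kcnip3, at 16.1, 15.6 and 15.4 FPKM, whose library values overlapped. Kcnj10 ranked 10 in cKO and 14 in control, and Kcnj3 13 and 10. The 10 genes that were highest in control held 52.4% of the summed channel FPKM in cKO and 54.6% in control. The sum over all members was 412 to 436 FPKM in cKO and 425 to 436 FPKM in control.

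The authors' deposited table tested 101 members and called 16 higher and 14 lower, which is 15.8% and 13.9%, beside 11.4% and 11.6% of all genes it tested. It called 19 of the 20 members called here, in the same direction, Kcnk13 being the exception. Of the members it called beyond these, 5 were tested but not called here (Cacna1b, Cacna1g, Kcnab3, Kcnk2 and Kcnk10) and 6 lay below the filter (Cacna2d3, Cacnb2, Kcnf1, Kcng1, Kcnj2 and Scn3a), all 6 of them higher in cKO.

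**Figure D4:**
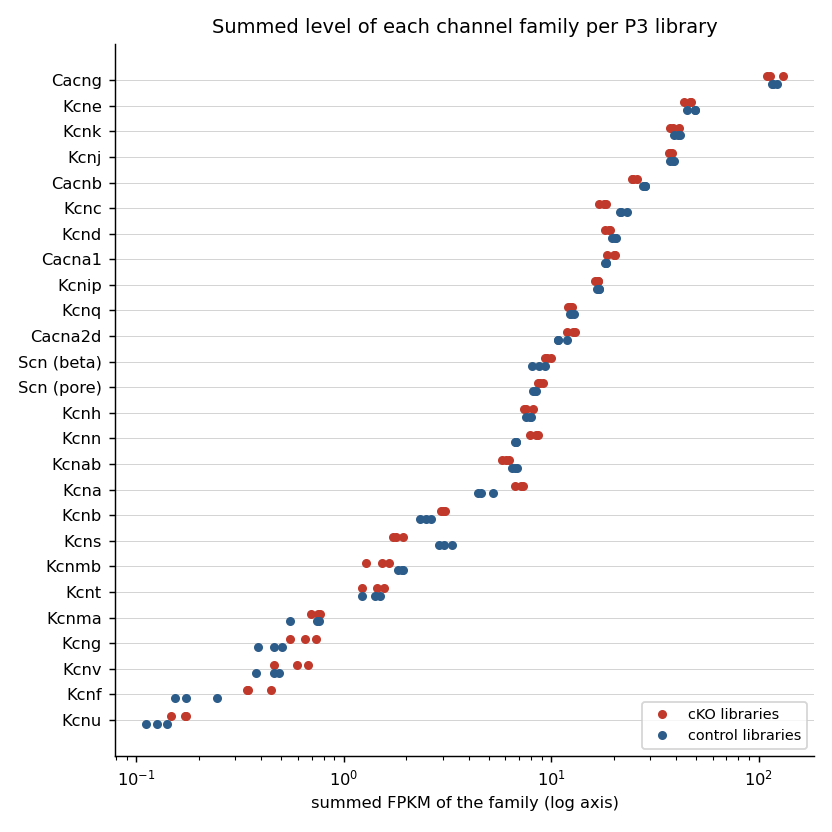
Summed FPKM of each of the 26 channel families per P3 library (log axis), cKO in red above control in blue. Cacng lies at the top and Kcnu at the bottom, and the 3 cKO sums lie all above the control sums in 10 families and all below in 6. Kcnf, Kcng and Kcnu, among the 10, held no tested gene.

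Summed by family, the cKO libraries lay all below the control libraries for Cacnb, Kcnab, Kcnc, Kcnd, Kcnmb and Kcns. They lay all above for Cacna1, Cacna2d, Kcna, Kcnb, Kcnf, Kcng, Kcnn, Kcnu and both Scn groups, and the groups overlapped for 10 families, among them Kcnj, Kcnk, Kcnq and Cacng. Kcnf, Kcng and Kcnu had no member above the filter, and the Kcnu sum was 0.164 FPKM in cKO and 0.126 FPKM in control. Of all tested single genes, 27.3% lay all above and 13.2% all below. A sum over several genes, some below the filter, is an unlike measure, so these shares are no matched background for the families. The Kcna sum was 7.06 ± 0.36 FPKM in cKO and 4.76 ± 0.45 FPKM in control (SD, n = 3). These sums are descriptions without a test.

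Genes outside the rule that work with these channels were taken from lists chosen for their role, with earlier results of these data known. Of 15 matched pore-forming relatives (Hcn, Clcn, Tpcn, Nalcn and Hvcn1) 14 were tested, and Clcn3, an endosomal chloride-proton exchanger gene, rose to 7.84 ± 0.16 FPKM in cKO, against 6.49 ± 0.16 FPKM in control (SD, n = 3). Of 27 auxiliary proteins 16 were tested: Abcc9 rose, and Rem2, which encodes a GTPase that inhibits calcium channels, fell to 3.06 ± 0.028 FPKM in cKO, against 3.94 ± 0.34 FPKM in control (SD, n = 3). Of 15 scaffold and adhesion genes of the initial segment and node 11 were tested. Cntnap1, which encodes the paranodal protein Caspr, fell to 12.2 ± 0.52 FPKM in cKO, against 16.7 ± 0.31 FPKM in control (SD, n = 3). Cntn2, which holds Kv1 channels beside the node, fell to 41.2 ± 1.9 FPKM in cKO, against 49.7 ± 1.7 FPKM in control (SD, n = 3), and Nfasc, which encodes neurofascin, rose to 9.05 ± 0.53 FPKM in cKO, against 7.09 ± 0.40 FPKM in control (SD, n = 3). The initial segment organiser gene Ank3 differed by -0.15 ± 0.05 (SE), adjusted p 0.058.

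Cntn2 is also a marker of differentiating granule neurons. Of the 17 markers in that list 15 were tested, 10 fell and none rose, with sums of 725 to 735 FPKM in cKO and 916 to 966 FPKM in control, and Gabra6 of mature granule neurons was under 0.1 FPKM in both groups. Kcnj3, Kcnj6, Kcnd2 and Cacng2 fell in the same libraries. Kcnk9 and Kcnd3, also tied to granule neurons above, were not called, with differences of 0.01 ± 0.05 and 0.01 ± 0.04 (SE). The part of fewer or less mature granule neurons in the falls was not tested.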

How the data were processed

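RNA of P3 granule cell progenitors was measured as strand-marked, poly(A)-selected libraries, per the labels' protocols. Per the submitters' processing notes the tools included HISAT2 2.2.1, StringTie 2.1.6, cutadapt 1.9, edgeR and DESeq2, on the mm10 build, with no role given for any. Not given in the sources used here: annotation, filters, and whether counting used strand. The deposited table holds FPKM per library, per the file headers, with the gene length behind it. It also holds the authors' comparison, per the file headers: a mean signal, log2 fold changes and their errors, a score for each test, and p-values before and after adjustment. An adjusted p of exactly 1 in it was read as not tested. Columns named ZM were taken as cKO, because ZM is the sole prefix beside WT and no further P3 samples are labelled.

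FPKM times gene length gave whole reads for 100% of values, within 0.02 reads, and these totals are the depths given. Replicates of a group differed by more than counting noise, so all were kept. limma 3.58.1 (R 4.3.3) with an intensity trend was fitted to log2(FPKM + 1) of the 13538 genes averaging 1 FPKM or more, without covariates, and p-values were adjusted by Benjamini-Hochberg over all of them. Steps were tested on simulated data. Alternatives were another pseudocount (0.1), no filter or a filter of 0.2 FPKM, upper quartile, quantile and TPM scaling, removal of a gene length trend (loess, span 0.3), no trend, array weights, voom on recovered reads, protein-coding genes only, a replicate block, and leaving out each library. Named were every called member, the most abundant member of each family and called partner genes, with others named for contrast after their values were seen. Some genes that this rule takes are not reported here. Members and lists were chosen with earlier results of these data known. Positions in the table coincided with RefSeq GRCm38.p6 gene positions for 0 of 131 members and are not given.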

Additional observations from a re-analysis of the deposited data

How the results depend on the processing

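The 10 higher calls among channel genes became 6 after removal of a gene length trend and 5 without a filter, after quantile normalization or with the replicate block, and 5 to 8 when single libraries were left out (5, or 6 without control replicate 1, except for 8 without cKO replicate 3). The 10 lower calls were 7 to 10 without single libraries. Over all genes, 2590 calls became 1271 without a filter, 1542 with the replicate block and 1193 to 2170 without single libraries, the lowest without cKO replicate 2. The median difference of tested channel genes, 0.02, was 0.0503 with TPM scaling, -0.0330 after removal of a gene length trend and -0.0453 after quantile normalization. The calls split 5 higher and 15 lower after quantile normalization, 6 and 13 after removal of the length trend and 5 and 9 with the block; the cause was not tested. Over 32 named channel genes and 18 alternatives, 501 values kept their side of the threshold, 66 lost it and 9 gained it. No called gene changed sign, but 18 values of 7 uncalled genes did, those of Cacna2d1, Kcnd3, Kcne1l, Kcnip3, Kcnk1, Scn3b and Scn8a. Same-numbered libraries correlated at -0.024, 0.036 and -0.097, and differently numbered ones at -0.080 to 0.109. With 3 libraries per group these values cannot settle whether the numbers pair samples. Over all tested genes the median difference was -0.06 for lengths up to 2 kb and 0.10 above 10 kb. Depth limits low genes such as Kcnj13, read 28 to 93 times per library.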
